A study of Mus musculus with 25 samples.

Results

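The clustered protocadherins are cell adhesion proteins encoded in 3 neighbouring gene clusters, alpha, beta and gamma, on chromosome 18 of the mouse. Members were the rows of the count table whose gene symbol began with Pcdha, with Pcdhb and a digit, or with Pcdhg. This gave 58 of 52636 genes, with 14 in the alpha, 22 in the beta and 22 in the gamma cluster. In the *soleus*, the gamma cluster was expressed throughout, apart from *Pcdhga10*, whose level the counts do not measure, the beta cluster mostly towards its downstream end, and the alpha cluster was nearly silent except for *Pcdhac2*. Of 40 members tested, loss of muscle DNMT3A called 0, beside 0.269% of all genes. Exercise called 1, beside 10.4% of all genes, namely *Pcdhgc3*, which was lower 60 minutes after the bout by a call that was lost under several alternatives.

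Each clustered protocadherin has its own promoter and its own large variable exon, which encodes the extracellular cadherin repeats, the transmembrane segment and part of the cytoplasmic tail. In the alpha and gamma clusters this exon is spliced to a common set of constant exons that encode the shared end of the tail, while beta genes are mostly single exons. The proteins bind copies of themselves on opposing membranes, and they are best known from neurons, where each cell uses a few members and thereby tells its own branches from those of other cells. The promoters of most alpha, beta and gamma members are used in that selective way, with DNA methylation and the looping factors CTCF and cohesin taking part, whereas the so-called C-type members at the ends of the alpha and gamma clusters are used by most neurons.

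RNA was sequenced from the *soleus*, a posture muscle with many slow fibres, of 25 C57BL/6 mice of 12 weeks, 13 males and 12 females, with 1 library per mouse. All mice carried *Dnmt3a* with both copies flanked by loxP sites around exon 19 (flox/flox). Mice without Cre are called WT, and mice with a Cre transgene under the muscle creatine kinase promoter are called mD3AKO. That promoter acts late in muscle differentiation and also in heart, so that satellite cells and non-muscle cells of the *soleus* presumably keep *Dnmt3a*, which was not tested here. Mice were killed at rest after a sham session (5 WT and 7 mD3AKO) or 60 minutes after a treadmill run of 30 minutes (7 WT and 6 mD3AKO). *Dnmt3a* itself lay between 93.4 and 131 CPM (counts scaled to a common library size) in the WT mice and between 34.5 and 53.9 CPM in the mD3AKO mice. Markers of slow fibres summed to between 26999 and 51373 CPM per mouse, those of fast fibres to between 22251 and 44335 CPM, and those of neurons to at most 7.85 CPM.

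Libraries held between 22671457 and 37431801 counts, of which the 58 members took between 630 and 2615 (median 1594). At the median library, 1 CPM is about 32.2 reads and a count of 3, used here as the floor, is 0.0932 CPM. The fewest counts, in total and for the family, belonged to mouse 15, a rested mD3AKO male whose scaling factor in the TMM normalization was 0.631, against 0.911 to 1.16 in the other 24 mice. CPM below are on TMM library sizes. In whole muscle, fewer cells of a type and less RNA per cell cannot be told apart.

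Which exon a read came from mattered for reading these counts. The annotated models of all 14 alpha members share 3 stretches, 2860 bases in all, and those of all 22 gamma members share 3 stretches of 2116 bases. Reads on such shared bases belong to several genes, and the counting program at its default leaves them out. In this table, of 66 genes with at least 1000 exonic bases but 0 free on their own strand, 46 had 0 counts in all 25 libraries and the others at most 26 counts in all. Overlap on the opposite strand was checked likewise. Of 59 genes with at least 1000 bases free on their own strand but 0 bases free once the opposite strand is considered, 58 had 0 counts in all 25 libraries. The exception was *Pcdhga10*, whose variable exon lies wholly inside an antisense gene, with 41 counts in all. The values of alpha and gamma members are therefore read as describing mainly variable exons, as far as this check goes, and those of *Pcdhga10* are not a measure of its level. Levels of different members are compared below as CPM per kb of sequence that no other annotated gene covers on either strand. Variable exons also resemble one another, and of their 75-base words between 0% and 13.9% recurred in another alpha member, up to 8.96% in another beta member and up to 38.0% in another gamma member. The largest share belonged to *Pcdhga4*, whose model overlaps that of *Pcdhgb1*.

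The alpha cluster held 265 of the 42078 counts of the family (0.630%), and 223 of these belonged to *Pcdhac2*. *Pcdhac2* (ENSMUSG00000102697.1, mm10 chr18:37143503-37187657, forward strand) is the downstream C-type member and the only alpha gene to pass the filter on low counts. Its level was 0.274 ± 0.114 CPM (SD, n = 25), with 2 to 18 counts per library. The other 13 alpha members had at most 2 counts in any library, below the floor, and their sum over the 13 genes reached at most 0.137 CPM in any mouse. *Pcdha8* (8 counts over the 25 libraries) and the downstream of 2 rows with the symbol *Pcdha11* (7 counts) came next, and *Pcdhac1*, the other alpha C-type gene, had 2, both in exercised WT mice. The 8 counts of *Pcdha8* were 1 in rested WT, 3 in exercised WT, 1 in rested mD3AKO and 3 in exercised mD3AKO mice. The 7 of the downstream *Pcdha11* row were 0, 2, 4 and 1 in the same order, and the upstream row had 6 in all. *Pcdha3* and *Pcdha4* had 0, which allows an expected count of at most about 3 over the whole set. Only 404 of the 5768 exonic bases of *Pcdha4* are free of other genes, against 2472 of 5332 in *Pcdha3*. The 0 of *Pcdha4* therefore says less about its level. No alpha member other than *Pcdhac2* was therefore detectable above the floor at this depth, at rest or after exercise, in either genotype.

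The beta cluster held 13321 counts (31.7% of the family) and its members differed widely. *Pcdhb17* was the highest at 0.567 CPM per kb, followed by *Pcdhb16* at 0.444 and *Pcdhb14* at 0.240 CPM per kb. In CPM over 25 mice, *Pcdhb17* (ENSMUSG00000046387.5, chr18:37484795-37489454) was at 2.64 ± 0.691, *Pcdhb16* (ENSMUSG00000047910.6, chr18:37477814-37483038) at 2.32 ± 0.525 and *Pcdhb14* (ENSMUSG00000044043.4, chr18:37447656-37456350) at 2.08 ± 0.461 (SD). These 3 genes lie close together in the downstream part of the cluster, and their groups overlapped. *Pcdhb17* was at 2.59 ± 0.740 CPM in rested WT, 2.58 ± 0.509 in exercised WT, 2.92 ± 0.915 in rested mD3AKO and 2.44 ± 0.606 in exercised mD3AKO mice. *Pcdhb16* was at 2.27 ± 0.334, 2.24 ± 0.435, 2.51 ± 0.797 and 2.22 ± 0.417 CPM, and *Pcdhb14* at 2.12 ± 0.238, 1.95 ± 0.518, 2.26 ± 0.561 and 2.01 ± 0.450 CPM in the same order. The 9 members from *Pcdhb14* to *Pcdhb22* had a median of 0.226 CPM per kb and the 13 upstream of them a median of 0.0842 CPM per kb, a division made after the levels were seen. *Pcdhb1*, the most upstream member, had 0 counts in all libraries. With it, *Pcdhb2*, *Pcdhb6* and *Pcdhb8* were under the filter, which left 18 beta genes to be tested.

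The gamma cluster held 28492 counts (67.7%), and each of its 22 members had reads. *Pcdhgc3* (ENSMUSG00000102918.1, chr18:37806364-37841873), the first of the 3 C-type genes at the downstream end, stood apart from the rest at 4.33 CPM per kb, between 3.08 and 5.83 over the 25 mice. *Pcdhgb6* (ENSMUSG00000103088.1, chr18:37742094-37841873) came next at 1.11 CPM per kb, between 0.407 and 1.80, so that the ranges of these 2 genes did not overlap. *Pcdhga6* (ENSMUSG00000103793.1, chr18:37707039-37841873) followed at 0.768 CPM per kb. In CPM, *Pcdhgb6* was at 2.73 ± 0.315 in rested WT, 2.45 ± 1.20 in exercised WT, 3.29 ± 0.680 in rested mD3AKO and 2.87 ± 0.614 in exercised mD3AKO mice, and *Pcdhga6* at 2.04 ± 0.519, 1.87 ± 0.418, 2.02 ± 0.402 and 2.12 ± 0.385 in the same order. *Pcdhgb6* varied most among the exercised WT mice, from 1.04 to 4.62 CPM. The A and B types were alike, with a median of 0.523 CPM per kb over 11 A genes and 0.537 over 7 B genes, whose ranges overlapped. The other 2 C-type genes were the lowest of the cluster, *Pcdhgc4* at 0.145 and *Pcdhgc5* at 0.117 CPM per kb. The C-type genes of the gamma cluster therefore spanned both ends of its levels, although they sit side by side and share their constant exons. *Pcdhga10* was alone in missing the filter, and 21 gamma genes were tested.

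**Figure D1:**
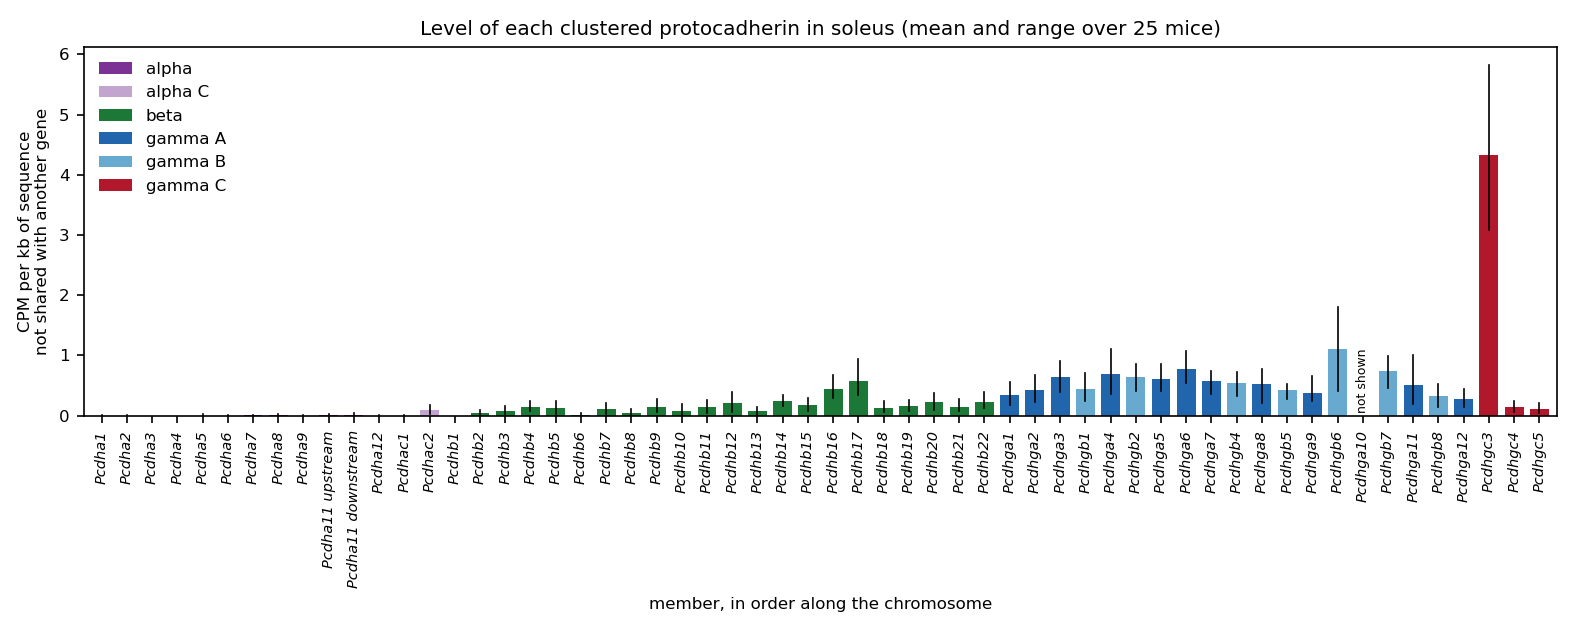
Level of each of the 58 members along the chromosome, in CPM per kb of sequence that no other gene covers; bars are means and lines the range over 25 mice. *Pcdhgc3* stands at 4.33 CPM per kb and *Pcdhgb6*, the next, at 1.11, while the alpha members other than *Pcdhac2* lie on the axis; *Pcdhga10* has no such sequence and is not shown.

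Summed over members, the clusters kept their order in every group. The gamma sum was 35.7 ± 4.33 CPM in rested WT (n = 5), 31.5 ± 5.37 in exercised WT (n = 7), 37.5 ± 5.06 in rested mD3AKO (n = 7) and 34.8 ± 2.72 in exercised mD3AKO mice (n = 6; SD throughout). The beta sum was 16.2 ± 2.74, 15.6 ± 2.61, 17.7 ± 5.33 and 14.7 ± 2.97 CPM in the same order, and the alpha sum 0.306 ± 0.140, 0.255 ± 0.101, 0.412 ± 0.124 and 0.317 ± 0.130 CPM. For each cluster, the ranges of the 4 groups overlapped. The sums are given as a description and were not tested.

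**Figure D2:**
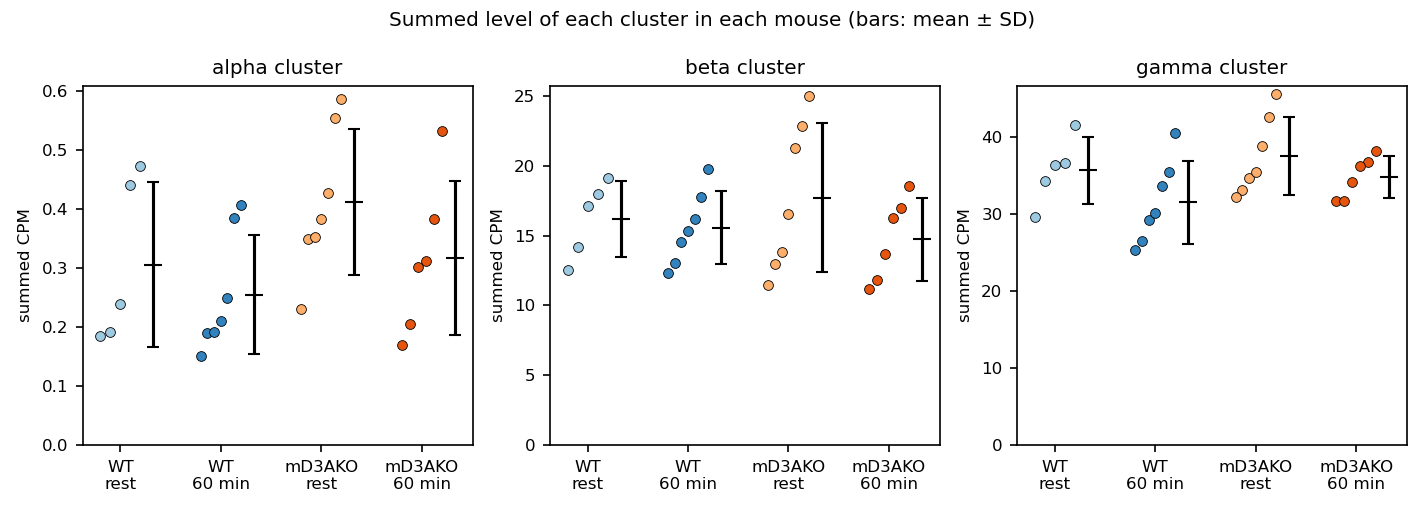
Summed CPM of the alpha, beta and gamma members in each mouse (points, drawn in order of level within a group) with the mean and SD of each group; the axes differ in scale. Gamma sums run from 25.3 to 45.6 CPM, beta sums from 11.2 to 25.0 and alpha sums from 0.151 to 0.587, and the 4 groups overlap in each cluster.

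The division of the reads within a cluster was described as each member's share. *Pcdhgc3* took 22.6% ± 2.08 of them in rested WT, 22.1% ± 2.54 in exercised WT, 24.1% ± 1.77 in rested mD3AKO and 21.8% ± 2.39 in exercised mD3AKO mice (SD). *Pcdhgb6* took 7.76% ± 1.59, 7.54% ± 2.56, 8.83% ± 1.86 and 8.29% ± 1.73 in the same order. The ranges of the groups overlapped for both genes. In the beta cluster, *Pcdhb17* took 16.4% ± 2.04, *Pcdhb16* 14.5% ± 1.72 and *Pcdhb14* 13.1% ± 1.95 of the reads over all 25 mice. These shares rest on between 107 and 416 reads of *Pcdhgc3* per library and on 22 to 171 of each of the 3 beta genes.

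**Figure D3:**
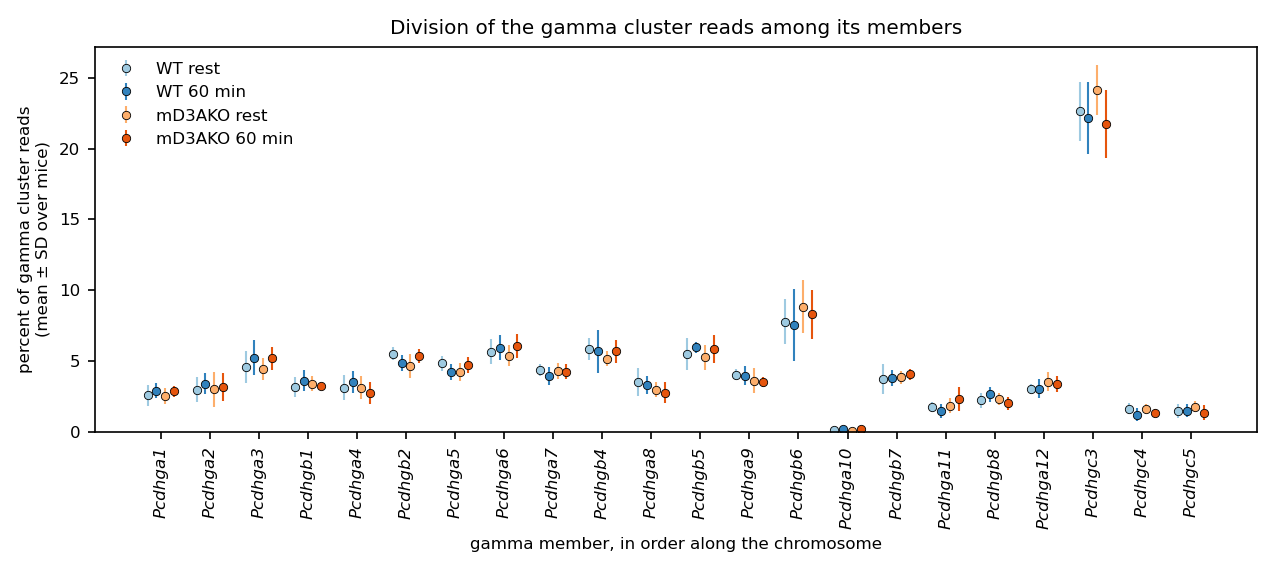
Percent of the gamma cluster's reads that each of its 22 members took, as the mean and SD over the mice of each group, with members in order along the chromosome. *Pcdhgc3* lies between 21.8% and 24.1% in the 4 groups and every other member below 10%.

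Whether the loss of muscle DNMT3A altered these genes was asked with the main effect of genotype, the mD3AKO minus WT difference averaged over rest and exercise. 0 of the 40 tested members were called at an adjusted p under 0.05 (edgeR's quasi-likelihood test, Benjamini-Hochberg over 16340 genes), in a comparison that called 0.269% of all genes. DESeq2 also called 0. At an unadjusted p under 0.05 there were 4 members (*Pcdhb5*, *Pcdhga12*, *Pcdhga11* and *Pcdhgc3*), beside 6.23% of all genes. Among the 40, 28 had a log2 fold change above 0 and 12 below, with a median of 0.07, against a median of 0.0070 over all genes. Of 21 gamma genes 17 lay above 0, and of 18 beta genes 10, where 46.6% of all genes lay below 0. In males alone 20 of 39 members lay above 0, and in females alone 31 of 40.

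The smallest p belonged to *Pcdhb5* (ENSMUSG00000063687.3, chr18:37320381-37323915), a single-exon beta gene of the upstream part. The rested WT mice had 0.124, 0.283, 0.298, 0.491 and 0.502 CPM. The exercised WT mice ran from 0.221 over a median of 0.300 to 0.500 CPM, the rested mD3AKO mice from 0.280 over 0.633 to 0.845 and the exercised mD3AKO mice from 0.271 over 0.434 to 0.499. Of the 7 rested mD3AKO mice, 5 were above every WT mouse and 2 were inside the WT range, while all exercised mD3AKO mice lay within it. The log2 fold change by genotype was 0.58 with an SE of 0.21 (adjusted p = 0.493, edgeR), and at rest alone 0.84 with an SE of 0.29 (adjusted p = 0.964). A library held between 4 and 32 of its reads.

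For *Pcdhgc3*, the mD3AKO mice had 8.36 ± 1.35 CPM (n = 13) and the WT mice 7.38 ± 1.00 CPM (n = 12), a log2 fold change of 0.15 with an SE of 0.07 (adjusted p = 0.801, edgeR). *Pcdhac2* was at 0.318 ± 0.113 CPM in mD3AKO and 0.225 ± 0.0969 CPM in WT mice, a log2 fold change of 0.43 with an SE of 0.22 (adjusted p = 0.822). *Pcdhga12* (ENSMUSG00000102428.1, chr18:37765580-37841873), the most downstream A-type gene, was at 1.26 ± 0.312 and 1.02 ± 0.243 CPM, a log2 fold change of 0.31 with an SE of 0.14 (adjusted p = 0.783). In males and in females alone, the log2 fold change was 0.08 and 0.26 for *Pcdhgc3* and 0.05 and 0.84 for *Pcdhac2*, none called, and the difference between the sexes was not tested. For these 3 genes the ranges of the genotypes overlapped, and none of the differences passed the test. At rest alone and after exercise alone 0 members were called, where 0.0918% and 0.11% of all genes were, with 1 and 3 members at an unadjusted p under 0.05 (3.65% and 5.51% of all genes) and 0 called by DESeq2. The alpha members under the floor in WT mice were also under it in mD3AKO mice. Without *Pcdhac2* the alpha sum was 0.0364 ± 0.0388 CPM in rested WT and 0.0466 ± 0.0281 CPM in rested mD3AKO mice, both under the floor of a single gene.

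The main effect of exercise, 60 minutes after the bout minus rest averaged over both genotypes, called *Pcdhgc3* lower and no member higher, among 40 tested. The comparison called 10.4% of all genes, 4.69% lower and 5.7% higher. *Pcdhgc3* had 6.59, 8.00, 8.00, 8.62 and 9.04 CPM in the rested WT mice and from 5.61 over a median of 7.12 to 7.78 CPM in the exercised WT mice. In mD3AKO mice it ran from 7.48 over 8.37 to 10.6 CPM at rest and from 6.48 over 7.40 to 9.16 CPM after exercise. Of the 5 rested WT mice 4 lay above all 7 exercised WT mice, while in mD3AKO mice the ranges overlapped more. The level was 8.62 ± 1.19 CPM over 12 rested and 7.21 ± 0.950 CPM over 13 exercised mice (SD). It fell by 0.24 on the log2 scale with an SE of 0.07 (adjusted p = 0.0359, edgeR), with log2 fold changes of -0.22 (SE 0.11) in WT and -0.26 (SE 0.10) in mD3AKO mice, neither called alone.

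This call was close to the threshold. It held with DESeq2 (adjusted p = 0.0149) and without mouse 15 (0.0206), but not on library totals without TMM (0.284), without the filter (0.0598) or in females alone, where the log2 fold change was -0.13 (0.787), against -0.36 in males alone (0.0495). The difference between the sexes was not tested. It was also lost when any 1 of 11 mice was left out, with adjusted p-values of 0.0563 without mouse 6, 0.0609 without 7, 0.0797 without 11, 0.0704 without 13, 0.0525 without 16, 0.0606 without 17, 0.0534 without 18, 0.0578 without 19, 0.0525 without 20, 0.0562 without 21 and 0.0625 without 24. Mouse 15 had 7.48 CPM of *Pcdhgc3* on the TMM scale and 4.72 CPM of its unscaled library total, and on library totals with that mouse left out, a setting chosen after the data were seen, *Pcdhgc3* was called again (log2 fold change -0.31, adjusted p = 0.0371). Of the annotated 5499 exonic bases of the gene, 1821 (33.1%) are free of other genes.

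Of the other C-type genes, *Pcdhgc4*, *Pcdhgc5* and *Pcdhac2* had lower levels after exercise too but did not pass. *Pcdhac1*, whose 2 counts were both in exercised WT mice, was under the filter and not tested. *Pcdhgc4* (ENSMUSG00000023036.14, chr18:37815079-37841873) had 0.328, 0.535, 0.649, 0.710 and 0.737 CPM in rested WT mice and from 0.219 over 0.282 to 0.605 CPM in exercised WT mice. In mD3AKO mice it ran from 0.469 over 0.560 to 0.845 CPM at rest and from 0.392 over 0.434 to 0.638 CPM after exercise. The 2 sets of ranges overlapped in both genotypes. The log2 fold change was -0.53 with an SE of 0.18 (adjusted p = 0.0545, edgeR), and it passed the threshold when any 1 of mice 1, 2, 4, 7, 9, 10 and 25 was left out (adjusted p 0.0207 to 0.0486) and on library totals without mouse 15 (0.0403). *Pcdhgc5* (ENSMUSG00000102543.5, chr18:37819513-37841873) was at 0.611 ± 0.201 CPM at rest and 0.468 ± 0.149 CPM after exercise, a log2 fold change of -0.36 with an SE of 0.19 (adjusted p = 0.292), which was -0.67 in males alone and -0.04 in females alone. *Pcdhac2*, the downstream C-type gene of the alpha cluster, was at 0.325 ± 0.122 CPM at rest and 0.226 ± 0.0843 CPM after exercise. Its log2 fold change was -0.45 with an SE of 0.22 (adjusted p = 0.220, edgeR).

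In the beta cluster the smallest p belonged to *Pcdhb12* (ENSMUSG00000043458.5, chr18:37435621-37438654). It was at 0.294 ± 0.0853 CPM over the rested and 0.188 ± 0.0766 CPM over the exercised mice. The rested WT mice had 0.185, 0.220, 0.295, 0.300 and 0.358 CPM, the exercised WT mice from 0.125 over 0.165 to 0.360, the rested mD3AKO mice from 0.201 over 0.263 to 0.434 and the exercised mD3AKO mice from 0.0683 over 0.157 to 0.281. The groups overlapped, with 2 to 17 reads per library, and 1107 of its 3034 bases are free of other genes. The log2 fold change was -0.62 with an SE of 0.21 (adjusted p = 0.0591, edgeR). It passed with sex in the model (0.0435) and when any 1 of mice 8, 14, 19 and 23 was left out (0.0282 to 0.0468). *Pcdhb14*, *Pcdhb16* and *Pcdhb17*, the most abundant beta genes, had log2 fold changes of -0.15, -0.10 and -0.14 with SEs of 0.13 to 0.15, and *Pcdhgb6* and *Pcdhga6* of -0.17 (SE 0.17) and -0.04 (SE 0.12).

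Over the 40 tested members, 37 log2 fold changes by exercise lay below 0 and 3 above (*Pcdhga2*, *Pcdhga3* and *Pcdhb9*), against 50.3% of all genes below 0. The median was -0.14 over 18 beta and -0.14 over 21 gamma genes, against -0.00088 over all genes, and 5 members had an unadjusted p under 0.05, where 21.3% of all genes did. The members were measured in the same 25 libraries and are not independent of one another. On library totals without TMM, 37 were again below 0, and in females alone 34.

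**Figure D4:**
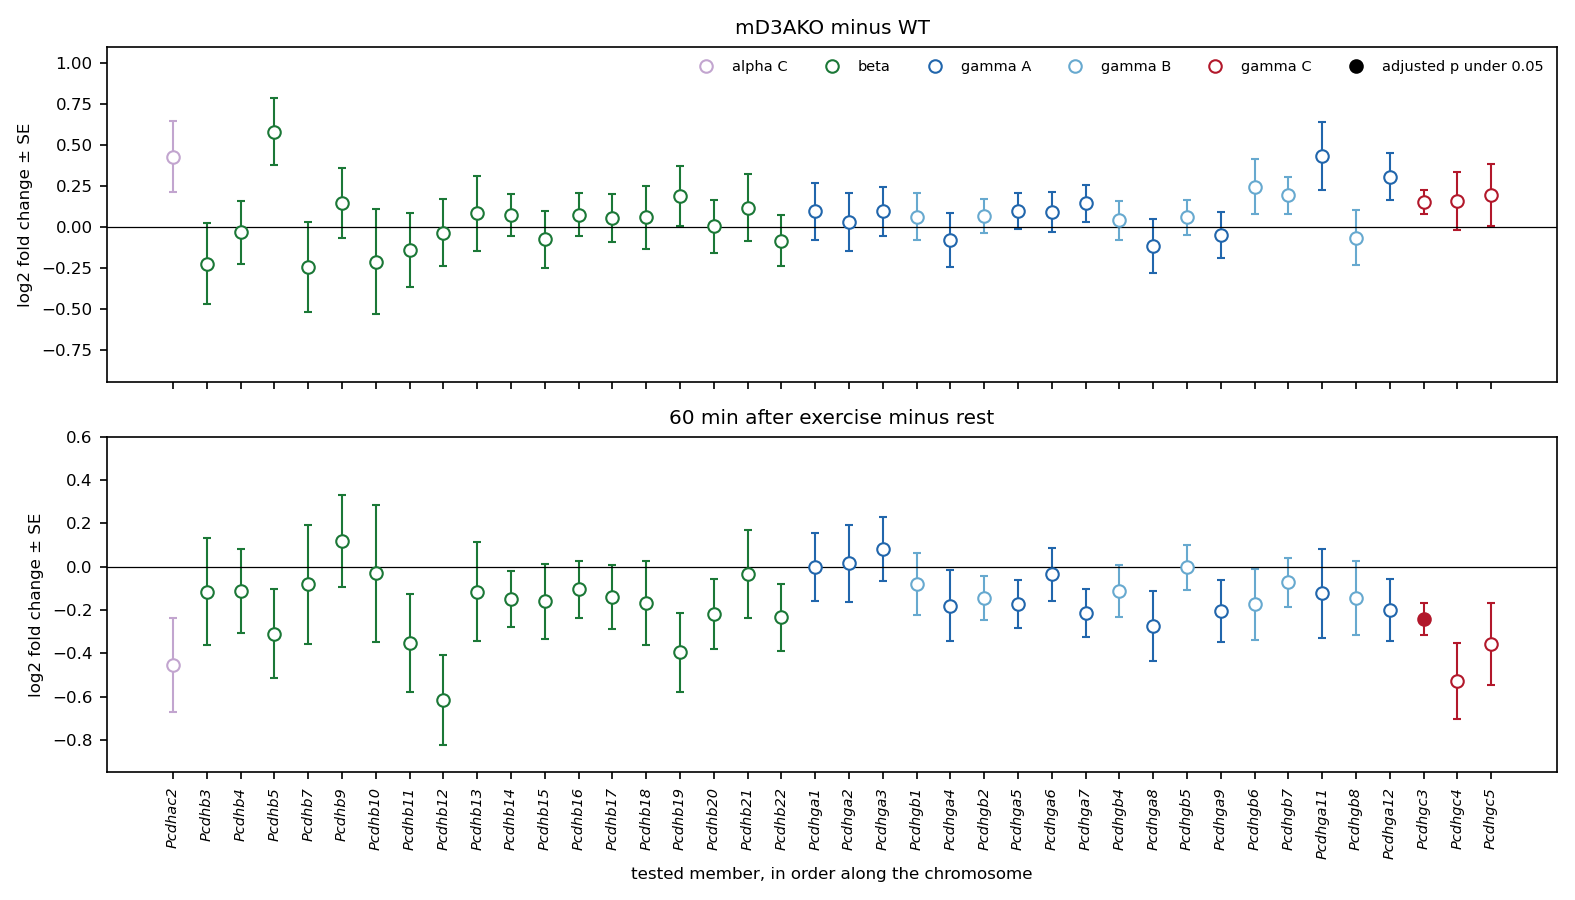
Log2 fold change with its SE (edgeR) of the 40 tested members, in order along the chromosome, for mD3AKO minus WT above and for exercise minus rest below; filled points have an adjusted p under 0.05. The single filled point is *Pcdhgc3* after exercise at -0.24, and 37 of the 40 points of the lower plot lie below 0.

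**Figure D5:**
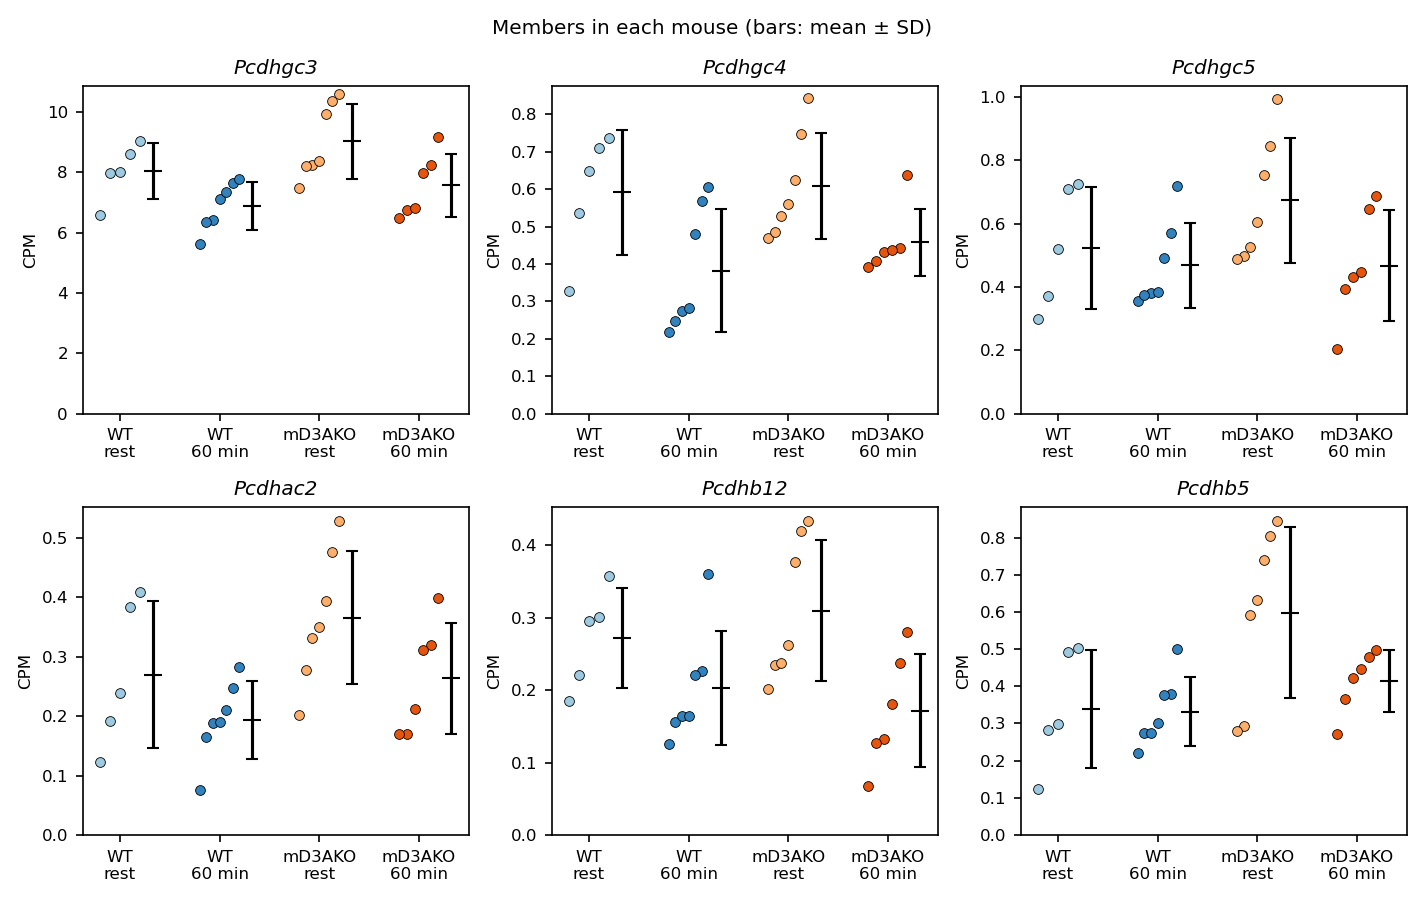
CPM of the tested gamma and alpha C-type genes *Pcdhgc3*, *Pcdhgc4*, *Pcdhgc5* and *Pcdhac2*, and of *Pcdhb12* and *Pcdhb5*, in each mouse (points, drawn in order of level within a group), with the mean and SD of each group. *Pcdhgc3* runs from 5.61 to 10.6 CPM and the other 5 genes stay below 1 CPM; groups overlap in each plot.

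Markers of some other cells of the muscle moved with exercise as well, in a comparison that called 4.69% of all genes lower. Of 5 endothelial markers, 3 were lower (*Kdr* by 0.58, *Tek* by 0.35 and *Cdh5* by 0.23 on the log2 scale, with adjusted p-values of 2.1e-06, 0.00029 and 0.0177), and the sum of the list lay between 361 and 477 CPM in rested WT, 299 and 399 in exercised WT, 354 and 458 in rested mD3AKO and 316 and 381 in exercised mD3AKO mice. Of 5 satellite cell markers *Myf5* and *Pax7* were lower, and *Chodl*, *Calcr* and *Cdh15* had log2 fold changes of 0.13, 0.08 and -0.13 that did not pass, with the sum between 43.3 and 54.0, 45.6 and 57.9, 42.2 and 60.3, and 39.6 and 55.4 CPM in the same order. Of 5 markers of pericytes and smooth muscle *Pdgfrb* was lower while *Myh11*, *Rgs5*, *Acta2* and *Cspg4* had log2 fold changes of 0.08, 0.03, 0.11 and -0.17 that did not pass, and their sum lay between 720.2 and 927 CPM over all groups. 0 of 6 fibroblast markers were called, though all 6 had log2 fold changes below 0 (-0.44 to -0.12), and their sum lay between 1102 and 5452 CPM at rest and between 1211 and 2929 after exercise. Of 7 neuronal markers 2 passed the filter. *Stmn2* was lower, while the other had a log2 fold change of 0.06 that did not pass. Exercise called 0 of 6 Schwann cell, 4 immune, 4 adipocyte and 3 blood markers. Each marker in these lists had over 3 counts in at least 1 library. By genotype *Pax7* was called higher (log2 fold change 0.48, adjusted p = 0.0384), the single call among these lists. The part of any of these cells in the change of *Pcdhgc3* was not tested.

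Whether exercise acted differently in the 2 genotypes was asked with the interaction. 0 of 40 members were called, as were 0% of all genes, and DESeq2 called 0 members. 1 member, *Pcdhgb2*, had an unadjusted p under 0.05, beside 2.47% of all genes. *Pcdhgb2* (ENSMUSG00000102748.1, chr18:37689828-37841873), a B-type gamma gene named after its values were seen, was at 1.96 CPM at rest (1.71 to 2.35) and 1.52 CPM after exercise (1.15 to 1.86) in WT mice, and at 1.75 CPM (1.26 to 2.30) and 1.86 CPM (1.71 to 2.02) in mD3AKO mice. The difference of the log2 responses was 0.46 with an SE of 0.20 (adjusted p = 1.00, edgeR). For *Pcdhgc3* it was -0.04 with an SE of 0.15. By cluster, 17 of 18 beta genes and 7 of 21 gamma genes had an interaction below 0, with medians of -0.26 and 0.05, against 52% of all genes below 0. Beta genes lay above 0 by genotype in 14 of 18 cases at rest and in 4 of 18 after exercise, and gamma genes in 15 and 16 of 21, where 46.6% and 49.4% of all genes lay below 0. The rested mD3AKO mice had the widest range of beta sums, from 11.5 to 25.0 CPM. Of these, mice 7, 21 and 24 had 25.0, 22.9 and 21.3 CPM, and the others at most 16.5. Rested WT mice had 12.5 to 19.1 CPM. The members are not independent of one another, and these counts of genes were not tested. All 6 fibroblast markers had interactions below 0 (-0.86 to -0.10), as had 6 Schwann cell (-1.18 to -0.45) and 4 adipocyte markers (-0.98 to -0.50). The 3 blood markers lay above 0 (0.05 to 0.25), the other marker lists spanned 0, and none was called. Whether these cells bear on the beta genes was not tested. The exercise response called 0 members in WT mice alone (3.59% of all genes) and 0 in mD3AKO mice alone (6.02%), with 4 members each at an unadjusted p under 0.05 (12.3% and 17.6% of all genes), and DESeq2 called 0 in both.

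Male and female mice were both present in each group. In the fit with sex as a term, which called 10% of all genes between the sexes, 2 members were called, and both were lower in males. *Pcdhga1* (ENSMUSG00000103144.1, chr18:37661793-37841873), the most upstream gamma gene, was at 0.787 ± 0.173 CPM in 13 males and 1.14 ± 0.263 CPM in 12 females, a male minus female log2 difference of -0.54 with an SE of 0.14 (adjusted p = 0.0162, edgeR). *Pcdhgb6* was at 2.44 ± 0.619 CPM in males and 3.28 ± 0.808 CPM in females, a log2 difference of -0.49 with an SE of 0.14 (adjusted p = 0.0215). The ranges of the sexes overlapped for both genes. *Pcdhgc3* was at 7.76 ± 1.31 and 8.02 ± 1.27 CPM, a difference of -0.08 with an SE of 0.07 that did not pass (adjusted p = 0.518). With sex in the model the call of *Pcdhgc3* by exercise was kept (adjusted p = 0.0241).

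The protocadherins outside the clusters, single genes with the same kind of cadherin repeats, were also examined. Of 12 listed, 10 were tested and exercise called 5 lower, where it called 4.69% of all genes lower, and 0 higher. Their median log2 fold change was -0.30, and the 5 not called ran from -0.34 for *Pcdh7* to 0.27 for *Pcdh20*. The difference from the clustered members was not tested. *Pcdh18* fell from 8.28 ± 1.38 to 4.02 ± 0.611 CPM in WT and from 10.1 ± 2.45 to 4.23 ± 1.41 CPM in mD3AKO mice, by 1.15 on the log2 scale (SE 0.12, adjusted p = 1.9e-07, edgeR). *Pcdh17* fell by 0.87 and *Pcdh12*, known from vascular endothelium, by 0.78 (adjusted p = 2.3e-06 and 3.4e-05). *Pcdh1* fell by 0.36 and *Pcdh19* by 0.25 (adjusted p = 0.0030 and 0.0103). Genotype called 0 of the 10.

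A list of 22 genes for chromatin architecture, repression and DNA methylation was also examined, and all were tested. It held *Ctcf*, the cohesin subunits *Rad21* and *Smc3*, *Smchd1*, *Setdb1* and the methylation enzymes, among others. The counts for this and the next lists stand beside 0.269% of all genes called by genotype and 10.4% by exercise. Genotype called only *Dnmt3a*, the deleted gene, which fell by 1.52 on the log2 scale (SE 0.07, adjusted p = 1.5e-13, edgeR). Exercise called only *Tet2*, an enzyme that oxidises methylated cytosine, higher by 0.45 (SE 0.09, adjusted p = 0.0014). Of 20 genes for binding partners and for the proteases that cleave these proteins, exercise called *Wasf1*, a subunit of the WAVE actin regulatory complex, which fell by 1.23 (SE 0.23, adjusted p = 0.00044), and genotype called 0. Of 18 genes in the chromosomal neighbourhood that are not clustered protocadherins, 16 were tested and genotype called 0. Among them *Taf7*, an intronless gene between the beta and gamma clusters that encodes a subunit of the general transcription factor TFIID, rose by 0.38 on the log2 scale after exercise (SE 0.07, adjusted p = 0.00080), while no cluster gene was called higher. The other 2 called there were *Pcdh1* and *Pcdh12*, which also stand in the list of protocadherins outside the clusters.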

How the data were processed

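Per the labels, the authors prepared strand-specific libraries from ribosome-depleted total RNA, read them as 75-bp paired ends and used mm10; the submitters' processing notes list FastQC 0.11.5, STAR 2.5.3a and featureCounts 1.5.3, and the study's methods name GENCODE release 15. The deposited values are counts per gene and library, without normalization or filter. Whether counting used the strand is not given in the sources used here. In the overlap check, 58 of 59 genes left without free bases by the opposite strand had 0 counts. Counting without regard to strand would give this. Antisense reads within the free bases of a member would then be counted for it, which was not tested. Symbols came from GENCODE release 21, which matched 52403 of 52636 genes, and 0 columns belonged to other samples.

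Counts were filtered with filterByExpr (minimum count 10, minimum total 15; 16340 genes kept), TMM-normalized and fitted with 1 mean per group (edgeR 4.0.16, limma 3.58.1, R 4.3.3). Quasi-likelihood p-values were adjusted by Benjamini-Hochberg over all tested genes and called under 0.05, with SEs taken from the size of each log2 fold change over the root of its F statistic. The script was tested on simulated data. The 67 pairs of replicates differed by more than sampling noise (lowest chi-square per gene 13.2), and each library is a separate mouse. Counting intervals cover counting error only.

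Members and lists were chosen with earlier results of these data known. Named were the members called, the 3 most abundant per cluster, the C-type genes and the smallest p per cluster and main effect. *Pcdhga10* and *Pcdhgb2*, the further members with a small unadjusted p by genotype or lying above 0 after exercise, *Pcdha3*, *Pcdha4*, *Pcdhb1*, *Pcdhga4* and *Pcdhga1*, and the members under the filter, were named after their values were seen. Alternatives were sex as a term, DESeq2 1.42.0, library totals without TMM, no filter, at least 1 CPM in at least 5 libraries, each sex alone, blocks of mouse numbers, each mouse left out and, added later, library totals without mouse 15. Sequence words of 75 bases were compared over the first exons in GENCODE release 21.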

Additional observations from a re-analysis of the deposited data

Results flagged for a closer look

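In exercised mD3AKO mice, the *Pcdhgc4* level of mouse 10, a male, stood apart from the other 5 of its group at 0.638 CPM, against 0.392 to 0.444 CPM, with 20 reads in that library and 12 to 14 in the others. The gap to the next mouse was 0.790 of the group's whole range. This was 1 of 68 combinations of gene or cluster and group examined, and chance alone marks about 1 in 20. Without mouse 10, the log2 fold change of *Pcdhgc4* by exercise was -0.58 (adjusted p = 0.0355, edgeR).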

How the results depend on the processing

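Neither genotype nor the interaction called a member under any of the 34 alternatives, 25 of which left out 1 mouse. For exercise, the number of members called was 1 in the main analysis, 2 with sex in the model and on library totals with mouse 15 left out, and 0 on library totals without TMM, without the filter and in females alone. Over all genes, the calls were 1699 of 16340, 1946 with sex, 1670 of 16334 without mouse 15 on library totals, 927 without TMM, 1512 of 35398 without the filter and 512 of 16895 in females. The number of members ranged from 0 to 2 when 1 mouse was left out. The cause was not tested, except that more genes were adjusted for without the filter and fewer mice were compared in females alone. The log2 fold change of *Pcdhgc3* by exercise stayed below 0 under every alternative (-0.36 to -0.13). Between 32 and 38 members lay below 0 for exercise when 1 mouse was left out, and 22 of 24 at 1 CPM or more. No paired analysis was possible because each mouse number occurs once and no number is shared between groups. Depth limits the low members: between 2 and 32 reads per library stand behind *Pcdhac2*, *Pcdhb5* and *Pcdhb12*.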
